A study of Mus musculus with 8 samples.

Results

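The genes described here encode the proteasome, its activators, its inhibitor and the chaperones that assemble it. They were the genes whose symbol begins with Psma to Psmg followed by a digit, each read from its brightest probe set annotated to that gene alone. This rule found 48 of the 12394 genes measured. Psmc3ip, a recombination factor, and Psme3ip1, a protein that binds an activator, matched by name only and are given apart, which leaves 46 genes with 83 probe sets. Psme2 shares its only probe set with the copy Psme2b and was not tested, and Psmb11, the subunit of the thymus proteasome, was not analysed here.

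The proteasome degrades proteins that carry ubiquitin chains. Its barrel-shaped core has outer rings of alpha subunits, which gate the entrance, and inner rings of beta subunits, of which Psmb5, Psmb6 and Psmb7 carry the cutting activity. A regulatory particle of ATPases (Psmc genes) and other subunits (most Psmd genes) recognises, unfolds and feeds in the substrate. Interferon induces Psmb8, Psmb9 and Psmb10, which replace Psmb5, Psmb6 and Psmb7 in newly built cores and favour peptides for class I antigen presentation. In neurons the proteasome takes part in synaptic plasticity and in the consolidation of fear memory.

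Hippocampi came from 8 male mice, 12 weeks old, that all carried the SCID defect, under which functional B and T lymphocytes are not formed. Every mouse went through contextual fear conditioning. The treated group were 4 mice given FTY720 (fingolimod), a sphingosine analogue that acts on sphingosine-1-phosphate receptors, orally in saline at 1 mg/kg for 3 days. The other 4 mice received saline alone for 3 days. Each hippocampus was collected 17 hours after the last dose and 1 hour after the fear consolidation test, and each mouse gave 1 Affymetrix 3' array (n = 4 per group, mice named by treatment and replicate number). Levels are log2 values, and a difference is FTY720 minus vehicle on that scale. Differences are between separate animals, and in bulk tissue fewer cells of a type and less RNA per cell cannot be told apart.

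Array medians lay between 6.68 and 6.72. On principal components over all genes, vehicle 15 stood alone on the first (35.7% of the variance) and vehicle 16 on the second (19.6%). The 5' minus 3' difference of the Gapdh control probe sets, a measure of RNA integrity, was -1.08 to -0.80 in FTY720 mice and -1.46 to -1.07 in vehicle mice, lowest in vehicle 16. Markers of tissue beside the hippocampus were uneven. The mean of 6 thalamus markers was 6.23 to 6.47 in FTY720 mice and 6.50 to 8.10 in vehicle mice, highest in vehicle 15, and that of 8 oligodendrocyte markers was 9.71 to 9.99 in FTY720 mice and up to 10.5 in vehicle mice, each vehicle mouse above each FTY720 mouse, with 8 of 8 markers lower in FTY720 mice at an unadjusted p under 0.05. The 5 striatum markers averaged 6.73 to 6.92 in FTY720 mice and 6.80 to 8.46 in vehicle mice, also highest in vehicle 15, and the 6 choroid plexus markers 5.93 to 8.34 in FTY720 mice and 6.27 to 8.95 in vehicle mice. Their part in the results below was not tested. Of the hippocampal neuron markers, 6 of 9 were measured and 5 of these were above the median level of all genes, 7.17, while Prox1 was near the floor of the arrays at 3.38 in FTY720 and 3.19 in vehicle mice.

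The first question was whether proteasome transcripts differed with FTY720. Most differences were small beside the spread between mice, and none of the 46 passed the limma test over all genes (lowest adjusted p = 0.719, for Psmb9). Over all 12394 genes 0 passed, and 823 were at an unadjusted p under 0.05. The median difference was 0.018, against 0.0072 over all genes, with 33 genes above and 13 below 0, and over all genes 6633 above and 5761 below. Leaving out 1 mouse moved this median to between 0.010 (without vehicle 16) and 0.031 (without FTY720 6), and with the Gapdh measure above as a covariate it was -0.0057. The 95% interval of the difference stayed within 1.25-fold in either direction for 42 of the 46 genes (91.3%), against 83.3% of all genes. The 4 whose intervals reached further were Psmb7, Psmb9, Psmc4 and Psmd13.

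At an unadjusted p under 0.05 stood 4 of the 46 genes (8.70%), beside 6.64% of all genes. Psmb9 and Psmb7 were higher in FTY720 mice, beside 3.86% of all genes in that direction, and Psmc2 and Psmc4 were lower, beside 2.78%. Values of the groups did not overlap for 2 of the 46 (4.35%), beside 4.49% of all genes. Psmb9 was higher in FTY720 mice, beside 2.72% of all genes in that direction, and Psmc2 was lower, beside 1.78%. Both shares are near those of all genes. In Psmb9, Psmb7, Psmc2 and Psmc4 alike, vehicle 15 and vehicle 16 lay farthest from the FTY720 mice. The count of 4 was 1 without FTY720 4, beside 5.67% of all genes. It was also 1 without vehicle 15 or without vehicle 16, where the share of all genes is not given here. Without FTY720 5 it was 2 (beside 5.64%), as it was without FTY720 6 (beside 5.16%). It was 0 without vehicle 15 and 16 together, beside 5.70% of all genes, and 0 when that Gapdh measure was a covariate, beside 4.07%. Under that covariate the differences of Psmb9 (0.24, SE 0.11) and Psmc2 (-0.11, SE 0.06) were about as large with a larger SE, while those of Psmb7 and Psmc4 were smaller. The plot of differences shows these genes among the rest.

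**Figure D1:**
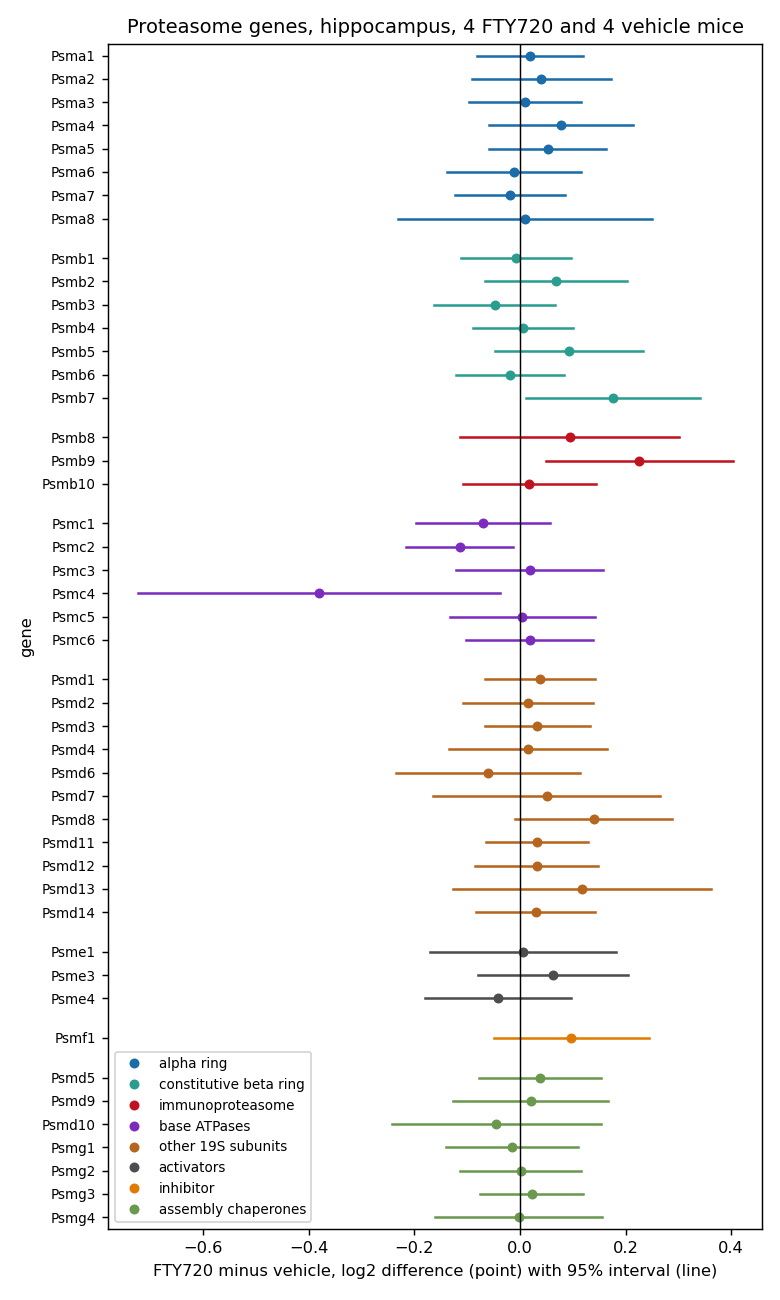
Log2 difference FTY720 minus vehicle (x axis, points) with its 95% limma interval (lines) for the 46 genes (y axis), coloured by class. Most points lie close to 0, while Psmc4 at -0.38 and Psmb9 at 0.23 lie farthest to either side.

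In the alpha ring the differences were small. Its 8 genes differed by between -0.02 and 0.08, with a median of 0.014, and no interval reached beyond 1.25-fold. The largest difference was that of Psma4, at 10.44, 10.46, 10.47 and 10.39 in FTY720 mice and 10.42, 10.46, 10.35 and 10.21 in vehicle mice. The groups overlapped, and vehicle 16 was lowest (difference 0.08, SE 0.06, limma adjusted p = 0.851). Psma5 had levels of 11.04, 11.08, 11.06 and 11.10 in FTY720 mice and 11.01, 10.93, 11.05 and 11.09 in vehicle mice, again overlapping (difference 0.05, SE 0.05, limma adjusted p = 0.880). The other 6 lay between -0.02 and 0.04. Psma8, the alpha subunit of the testis form, was the only one of the 8 below the median level of all genes, at 4.20 ± 0.15 in FTY720 and 4.19 ± 0.20 in vehicle mice (SD, n = 4 each).

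Among the constitutive beta subunits, the difference was largest for Psmb7, and the others, structural or cutting, lay between -0.05 and 0.09. Psmb7, the subunit with trypsin-like activity, had levels of 8.11, 8.22, 8.19 and 8.26 in FTY720 mice and 8.13, 8.14, 7.98 and 7.84 in vehicle mice. The lowest FTY720 mouse lay below vehicle 13 and 14, and vehicle 16 was lowest of all. The difference was 0.18 (SE 0.07, 1.13-fold, limma adjusted p = 0.742). It was 0.12 without vehicle 16, 0.06 without vehicle 15 and 16, and 0.05 when that Gapdh measure was a covariate.

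Psmb5, the subunit with chymotrypsin-like activity and the main target of proteasome inhibitor drugs, stood at 10.87, 10.97, 10.97 and 10.85 in FTY720 mice. In vehicle mice it stood at 10.89, 10.91, 10.81 and 10.68, overlapping, with vehicle 16 again lowest. Its difference was 0.09 (SE 0.06, limma adjusted p = 0.823). Psmb6, the subunit with caspase-like activity, had levels of 10.19, 10.22, 10.23 and 10.15 in FTY720 mice and 10.19, 10.22, 10.28 and 10.18 in vehicle mice, nearly the same in both groups (difference -0.02, SE 0.05, limma adjusted p = 0.963). The structural subunits Psmb1, Psmb2, Psmb3 and Psmb4 lay at -0.0069, 0.07, -0.05 and 0.0057. On its brightest probe set, Psmb4 varied least within the groups of all 46 genes, with an SD of 0.03. Its other probe set, at a mean level of 10.8, had an SD of 0.04 in FTY720 and 0.19 in vehicle mice.

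The Psmb5 promoter is shown because it holds the core of the antioxidant response element, the kind of site through which the factor Nfe2l1 restores proteasome genes when the proteasome is blocked. The window runs from 250 bases before to 50 bases after the gene's start (RefSeq, GRCm38.p6, chr14:54617946-54618245, minus strand) and is of the reference strain, not of these mice. Capitals mark the 1 match to TGACNNNGC, which begins at position -47 from the start.
Psmb5 promoter: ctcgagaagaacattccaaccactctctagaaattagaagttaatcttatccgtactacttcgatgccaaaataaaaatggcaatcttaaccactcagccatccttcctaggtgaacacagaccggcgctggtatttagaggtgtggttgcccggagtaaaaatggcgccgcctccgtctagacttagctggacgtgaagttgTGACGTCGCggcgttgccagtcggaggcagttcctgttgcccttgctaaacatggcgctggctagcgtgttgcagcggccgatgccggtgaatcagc

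Nfe2l1 itself was at 9.77 ± 0.04 in FTY720 and 9.77 ± 0.09 in vehicle mice (SD, n = 4 each), differing by 0.0026 (SE 0.06, limma adjusted p = 0.996).

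The 3 immunoproteasome subunits were all on the higher side in FTY720 mice, by very unequal amounts. Psmb9 had levels of 5.78, 5.75, 5.76 and 5.84 in FTY720 mice and 5.63, 5.72, 5.33 and 5.54 in vehicle mice. Every FTY720 mouse was above every vehicle mouse and vehicle 15 was lowest, with FTY720 4 and vehicle 14 close to each other. The mean was 5.78 ± 0.04 in FTY720 and 5.56 ± 0.17 in vehicle mice (SD, n = 4 each), differing by 0.23 (SE 0.08, 1.17-fold, limma adjusted p = 0.719). It was 0.15 without vehicle 15, 0.11 without vehicle 15 and 16, and 0.24 under the Gapdh covariate.

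Psmb8 had levels of 6.01, 5.98, 6.15 and 5.79 in FTY720 mice and 6.03, 6.01, 5.78 and 5.74 in vehicle mice. The groups overlapped, and FTY720 6, vehicle 15 and vehicle 16 were low. Its difference was 0.09 (SE 0.09, limma adjusted p = 0.886), or -0.04 without vehicle 15 and 16. Psmb10 had levels of 8.87, 8.80, 8.80 and 8.77 in FTY720 mice and 8.83, 8.82, 8.66 and 8.86 in vehicle mice. Vehicle 15 was the only mouse apart, and the difference was 0.02 (SE 0.06, limma adjusted p = 0.975). Psmb8 and Psmb9 were below the median level of all genes. Each of the 3 had a single probe set.

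**Figure D2:**
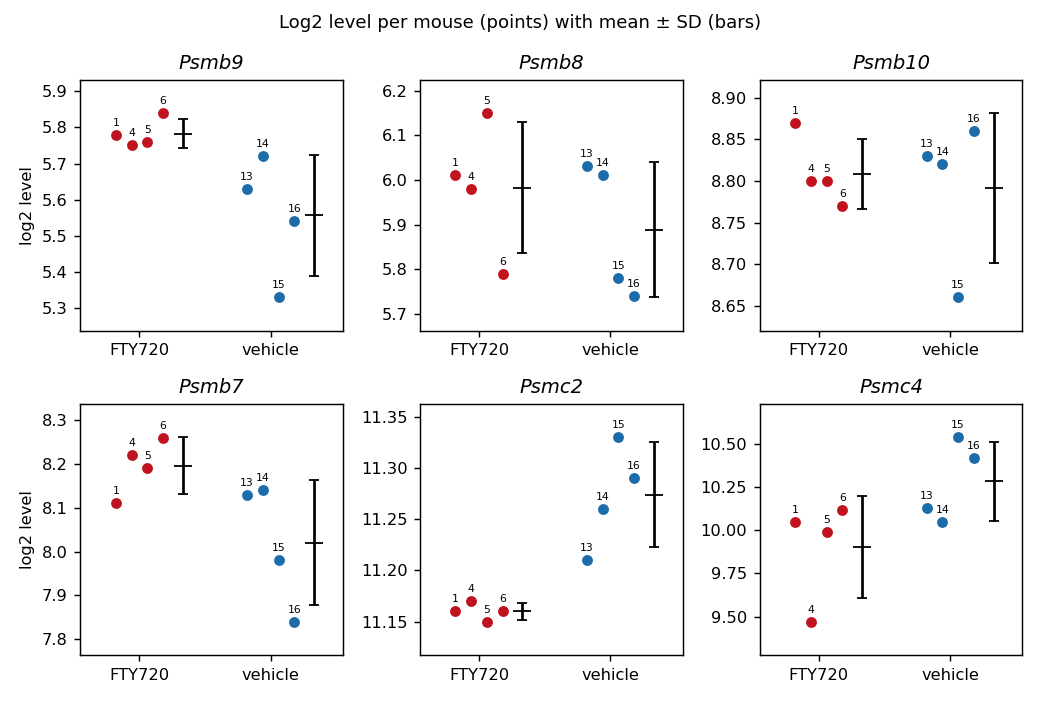
Log2 level (y axis) of 6 genes in each mouse, FTY720 in red and vehicle in blue, with the replicate number above each point and the mean ± SD beside each group (n = 4). Psmb9 and Psmc2 show no overlap between the groups, and vehicle 15 and 16 lie farthest from the FTY720 mice in Psmb9, Psmb7, Psmc2 and Psmc4.

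Set against the subunit each one replaces, the differences were uneven. Within each mouse, the Psmb9 minus Psmb6 difference averaged -4.42 ± 0.07 in FTY720 and -4.66 ± 0.20 in vehicle mice, which differ by 0.24, or by 0.15 without vehicle 15 and 0.11 without vehicle 15 and 16. Psmb8 minus Psmb5 averaged -4.93 ± 0.11 in FTY720 and -4.93 ± 0.08 in vehicle mice, which differ by 0.0017, a shift whose sign varied between settings. Psmb10 minus Psmb7 averaged 0.61 ± 0.11 in FTY720 and 0.77 ± 0.17 in vehicle mice (SD, n = 4 each), which differ by -0.16. This was -0.08 without vehicle 16 and likewise without vehicle 15 and 16, and 0.04 under the Gapdh covariate. The size of each within-mouse value depends on the probe sets, and only its shift between groups can be read.

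Psmb8 and Psmb9 lie close together on chromosome 17 in the class II region of the histocompatibility complex, and the Psmb9 promoter is shown as that of the immunoproteasome gene with the largest difference. The window (RefSeq, GRCm38.p6, chr17:34187281-34187580, minus strand) shares 275 of its 300 bases with that of Tap1, the peptide transporter gene read in the opposite direction. Capitals mark a CCAAT box on the other strand.
Psmb9 promoter: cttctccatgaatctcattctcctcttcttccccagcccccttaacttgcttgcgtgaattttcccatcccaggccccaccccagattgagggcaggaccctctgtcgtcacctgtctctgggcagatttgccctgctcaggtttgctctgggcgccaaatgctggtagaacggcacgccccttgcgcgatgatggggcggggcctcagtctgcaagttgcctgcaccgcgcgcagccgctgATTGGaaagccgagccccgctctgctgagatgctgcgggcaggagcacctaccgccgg

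Tap1, which shares that promoter region with Psmb9, had levels of 5.91, 5.99, 5.92 and 5.92 in FTY720 mice and 5.74, 5.99, 5.64 and 5.48 in vehicle mice. Vehicle 14 reached the FTY720 values, and vehicle 16 was lowest, followed by vehicle 15. The difference was 0.22 (SE 0.09, limma adjusted p = 0.743), beside 0.23 for Psmb9, and is not given without these mice. Tap1 too was below the median level of all genes. Tap2, the partner of Tap1, differed by -0.01 (SE 0.06). The part of the shared region in the Psmb9 and Tap1 values was not tested. Microglia can express immunoproteasome genes. Of 11 measured microglia markers 0 were at an unadjusted p under 0.05 (median difference -0.0041), and the mean of the list was 7.49 to 7.59 in FTY720 mice and 7.39 to 7.67 in vehicle mice, lowest in vehicle 15 as Psmb9 was. The mean of 9 endothelial markers was 7.11 to 7.26 in FTY720 mice and 7.09 to 7.36 in vehicle mice, also lowest in vehicle 15, with 1 higher and 1 lower at an unadjusted p under 0.05 (22.2%, beside 6.64% of all genes). The part of these cells in the Psmb9 values was not tested. The mean of 6 lymphocyte markers was 5.02 to 5.09 in FTY720 mice and 5.01 to 5.09 in vehicle mice, and none of the 6 was above the median level of all genes. Of them 1, Cd79a, was higher at an unadjusted p under 0.05 (16.7%, beside 6.64% of all genes). Its groups did not overlap (16.7%, beside 4.49%), and it differed by 0.11 (SE 0.05, limma adjusted p = 0.735).

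The ATPases of the regulatory particle held both genes with lower values at an unadjusted p under 0.05, and the median of the 6 was -0.03. Psmc2 had levels of 11.16, 11.17, 11.15 and 11.16 in FTY720 mice and 11.21, 11.26, 11.33 and 11.29 in vehicle mice. The FTY720 mice were nearly identical, with an SD of 0.0082, and all lay below the vehicle mice. The difference was -0.11 (SE 0.04, 1.08-fold lower, limma adjusted p = 0.726), and -0.07 without vehicle 15 and 16. Psmc4 had levels of 10.05, 9.47, 9.99 and 10.12 in FTY720 mice and 10.13, 10.05, 10.54 and 10.42 in vehicle mice. FTY720 4 was far below the others and vehicle 15 and 16 were above them, while FTY720 6 lay above vehicle 14. Its difference was the largest of the 46 genes, -0.38 (SE 0.15, 1.30-fold lower, limma adjusted p = 0.734). It was -0.24 without FTY720 4, -0.19 without vehicle 15 and 16, and -0.23 under the Gapdh covariate. Psmc4 also varied most within the groups, with an SD of 0.26.

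The other probe set of each gene did not show these differences. The second Psmc4 probe set read 8.64, 8.67, 8.70 and 8.56 in FTY720 mice and 8.65, 8.70, 8.56 and 8.63 in vehicle mice (difference 0.0085, SE 0.05). Between mice it ran opposite to the first, an _a_ probe set, with Pearson r of -0.56 over the 8 arrays. The second Psmc2 probe set read 10.53, 10.60, 10.58 and 10.44 in FTY720 mice and 10.60, 10.60, 10.52 and 10.53 in vehicle mice (difference -0.02, SE 0.05), and its r with the first, an _x_ probe set, was -0.0067. The suffixes _a_ and _x_ mark probe sets that match several transcripts or may bind other sequences. Psmc1, Psmc3, Psmc5 and Psmc6, the other ATPases, lay at -0.07, 0.02, 0.0044 and 0.02.

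Psmc2 has 2 annotated starts, and both promoter windows are shown because each holds ACTTCCGG, a site for ETS factors that recurs among these genes. Capitals mark that site and, in the first window, a CCAAT box (RefSeq, GRCm38.p6, chr5:21785025-21785324 and chr5:21786497-21786796, plus strand).
Psmc2 promoter, first start: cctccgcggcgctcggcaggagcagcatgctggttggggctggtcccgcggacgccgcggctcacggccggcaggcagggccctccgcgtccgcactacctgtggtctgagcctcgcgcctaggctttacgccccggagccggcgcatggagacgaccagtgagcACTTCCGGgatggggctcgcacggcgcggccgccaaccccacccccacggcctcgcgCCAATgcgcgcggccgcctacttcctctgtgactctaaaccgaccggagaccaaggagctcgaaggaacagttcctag
Psmc2 promoter, second start: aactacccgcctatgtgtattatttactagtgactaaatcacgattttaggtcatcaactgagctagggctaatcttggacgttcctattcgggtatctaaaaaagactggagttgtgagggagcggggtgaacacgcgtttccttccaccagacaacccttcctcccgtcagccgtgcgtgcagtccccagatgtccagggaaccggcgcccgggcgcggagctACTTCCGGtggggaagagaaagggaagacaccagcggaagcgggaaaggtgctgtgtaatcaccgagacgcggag

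The other 11 subunits of the regulatory particle had a median difference of 0.032, with 10 above and 1 below 0, and none at an unadjusted p under 0.05. Psmd8, a lid subunit, came closest, with levels of 9.46, 9.61, 9.61 and 9.48 in FTY720 mice and 9.40, 9.49, 9.46 and 9.25 in vehicle mice. Vehicle 14 lay above the lowest FTY720 mice and vehicle 16 was lowest (difference 0.14, SE 0.07, limma adjusted p = 0.756). The Psmd8 difference was 0.05 under the Gapdh covariate. In 5 of 18 alternatives its unadjusted limma p was under 0.05. Psmd13, another lid subunit, had levels of 8.29, 8.73, 8.52 and 8.29 in FTY720 mice and 8.31, 8.52, 8.36 and 8.18 in vehicle mice. FTY720 4 was highest and vehicle 16 lowest, and the difference was 0.12 (SE 0.11, limma adjusted p = 0.880). It was 0.03 without FTY720 4, 0.06 without vehicle 16 and -0.02 under the Gapdh covariate. The ubiquitin receptors Psmd2 and Psmd4 lay at 0.02 and 0.01, and Psmd14, the deubiquitinase that removes the chain before degradation, lay at 0.03. The scaffold subunit Psmd1 was at 0.04, Psmd3 and Psmd11 at 0.03, Psmd12 at 0.03, Psmd7 at 0.05 and Psmd6 at -0.06.

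The activators, which open the core in place of the ATPase particle, did not differ by more than the spread between mice. Psme1, a subunit of the interferon-induced activator, had levels of 8.55, 8.53, 8.63 and 8.54 in FTY720 mice and 8.48, 8.55, 8.79 and 8.41 in vehicle mice (difference 0.006, SE 0.08, limma adjusted p = 0.993). Vehicle 15 was highest and vehicle 16 lowest, so the FTY720 mice lay between them. Psme3, the nuclear activator, had levels of 7.65, 7.86, 7.86 and 7.73 in FTY720 mice and 7.72, 7.79, 7.69 and 7.64 in vehicle mice, overlapping (difference 0.06, SE 0.06, limma adjusted p = 0.889). Psme4, the activator linked to histone degradation, had levels of 9.34, 9.33, 9.35 and 9.34 in FTY720 mice and 9.37, 9.37, 9.25 and 9.54 in vehicle mice. The FTY720 mice were nearly identical and lay between vehicle 15 and the other vehicle mice (difference -0.04, SE 0.06, limma adjusted p = 0.920). The Psme1 promoter (RefSeq, GRCm38.p6, chr14:55578244-55578543, plus strand) is shown as that of an interferon-induced member outside chromosome 17. Capitals mark its match, on the other strand, to the core of the interferon-stimulated response element (GAAA, any 2 bases, GAAA), which begins at base 10 after the start.
Psme1 promoter: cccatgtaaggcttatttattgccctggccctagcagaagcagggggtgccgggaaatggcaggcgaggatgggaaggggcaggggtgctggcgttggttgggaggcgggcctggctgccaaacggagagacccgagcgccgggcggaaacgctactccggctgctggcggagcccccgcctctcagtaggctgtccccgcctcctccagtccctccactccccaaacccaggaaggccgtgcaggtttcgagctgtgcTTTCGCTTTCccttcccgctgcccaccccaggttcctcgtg

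Psmf1, a protein that binds the core and inhibits it in vitro, had levels of 7.39, 7.32, 7.36 and 7.58 in FTY720 mice and 7.34, 7.40, 7.27 and 7.26 in vehicle mice. The groups overlapped and FTY720 6 was highest (difference 0.10, SE 0.07, limma adjusted p = 0.824). The difference was 0.04 without FTY720 6 and 0.02 as the mean of all its probe sets. The 7 assembly chaperones had differences between -0.04 and 0.04, with a median of 0.0015. Psmg1 to Psmg4, which build the alpha ring, lay at -0.01, 0.0015, 0.02 and -0.0024. Psmd5, Psmd9 and Psmd10, which help assemble the ATPase ring, lay at 0.04, 0.02 and -0.04. Psmd5 had levels of 8.0, 8.10, 8.10 and 8.04 in FTY720 mice and 8.08, 8.07, 8.0 and 7.94 in vehicle mice, overlapping (SE 0.05, limma adjusted p = 0.914). Psmd10, also known as gankyrin, had levels of 7.80, 7.94, 8.07 and 7.80 in FTY720 mice and 7.84, 8.08, 8.07 and 7.80 in vehicle mice, spread alike in both groups (SE 0.09, limma adjusted p = 0.949). The name-only matches Psmc3ip and Psme3ip1 lay at 0.03 and 0.05.

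Probe sets of 1 gene often lay on different sides of 0. Among the 21 such genes, the brightest and next brightest probe sets lay on the same side of 0 in 11, with a median gap of 0.091 between their differences, and all probe sets lay on one side in 6. Over the 83 probe sets, 3 were higher and 3 lower at an unadjusted p under 0.05, beside 6.76% of all probe sets annotated to 1 gene. The 2 not yet named were an _x_ probe set of Psmb4, at -0.20 (SE 0.09), and a dimmer probe set of Psme4, at 0.18 (SE 0.08). The Psmb4 one read 10.66, 10.64, 10.66 and 10.72 in FTY720 mice and 10.74, 10.70, 11.13 and 10.90 in vehicle mice. The brighter Psmb4 probe set gave 0.0057. Vehicle 15 was the highest mouse on this probe set, as it was on the _x_ probe set of Psmc2 and the _a_ probe sets of Psmc4 and Psmd6. Vehicle 15 was also highest on the brightest probe sets of Psma3, Psma6 and Psmd14, which carry such suffixes. The same held for Psmb4, Psmb6, Psmc1, Psme1 and Psmg2, whose brightest probe sets lack them. It was not highest on the _a_ probe sets of Psmb5 and Psma7, among others. The part of the probe set type was not tested. For Psmd6 the other probe set, nearly as bright, gave 0.08 (SE 0.06), against -0.06.

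**Figure D3:**
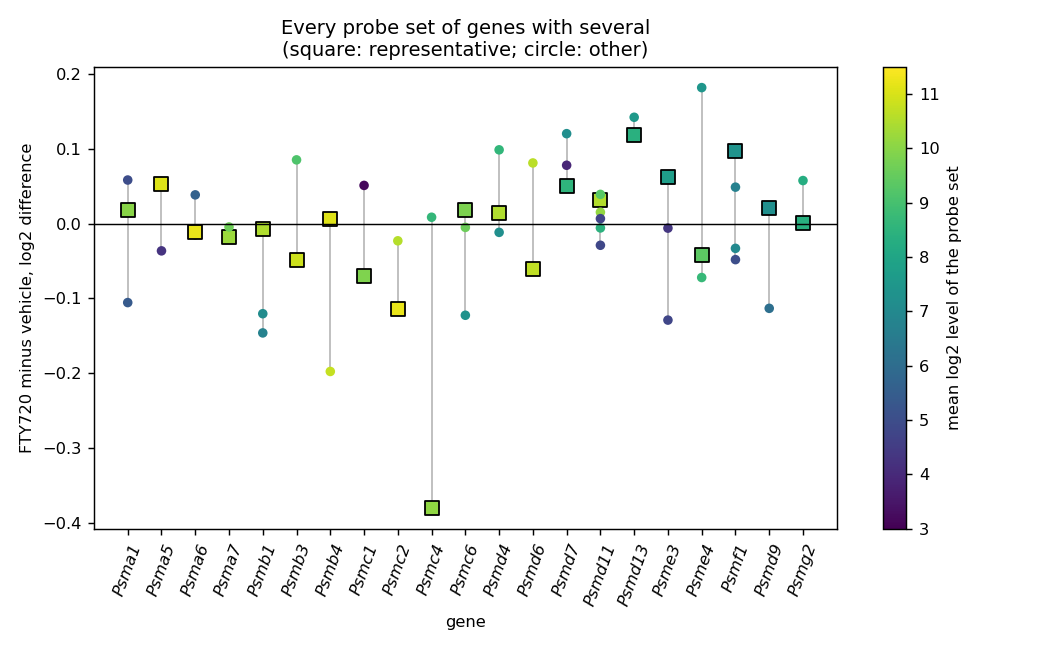
Log2 difference FTY720 minus vehicle (y axis) of every probe set of the 21 genes with several (x axis), coloured by mean log2 level, with a square for the representative one. Psmc4 has the widest gap, with -0.38 and 0.0085.

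The spread between mice was larger than the shift between groups. The median SD within groups was 0.074 for the 46 genes, against 0.082 for all genes above the median level, and the median absolute difference was 0.033. Averaged over the 46 genes, each mouse deviated from the 8-mouse mean by -0.01, 0.02, 0.04 and -0.01 (FTY720 1, 4, 5 and 6) and by -0.01, 0.02, -0.0015 and -0.04 (vehicle 13 to 16). FTY720 5 was thus highest and vehicle 16 lowest. Vehicle 16 had the lowest value of all mice in 19 of the 46 genes, and vehicle 15 the highest in 11. Over all genes vehicle 16 was lowest in 2097 of 12394 and vehicle 15 highest in 2118. Among the 6197 genes above the median level, vehicle 16 was lowest in 1330 and vehicle 15 highest in 1248.

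With the group means removed, pairs of the 46 genes correlated across the 8 arrays with a median r of 0.17, and 59.9% of the 1035 pairs were above 0. Pairs of these genes with other genes had a median of -0.0054. The median of 0.17 depended on processing. It was 0.087 after quantile normalization, 0.090 when centred on genes above the median level and 0.072 with the mean of all probe sets. The constitutive beta ring had the highest median of the classes, 0.49 over 21 pairs. The regulatory subunit Psmd4 followed the others most closely, with a median r of 0.52, while Psma8 at -0.50 and Psmc4 at -0.37 ran against them. All pairs share the same 8 arrays, so these values describe the arrays only. The plot of deviations shows the pattern by mouse.

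**Figure D4:**
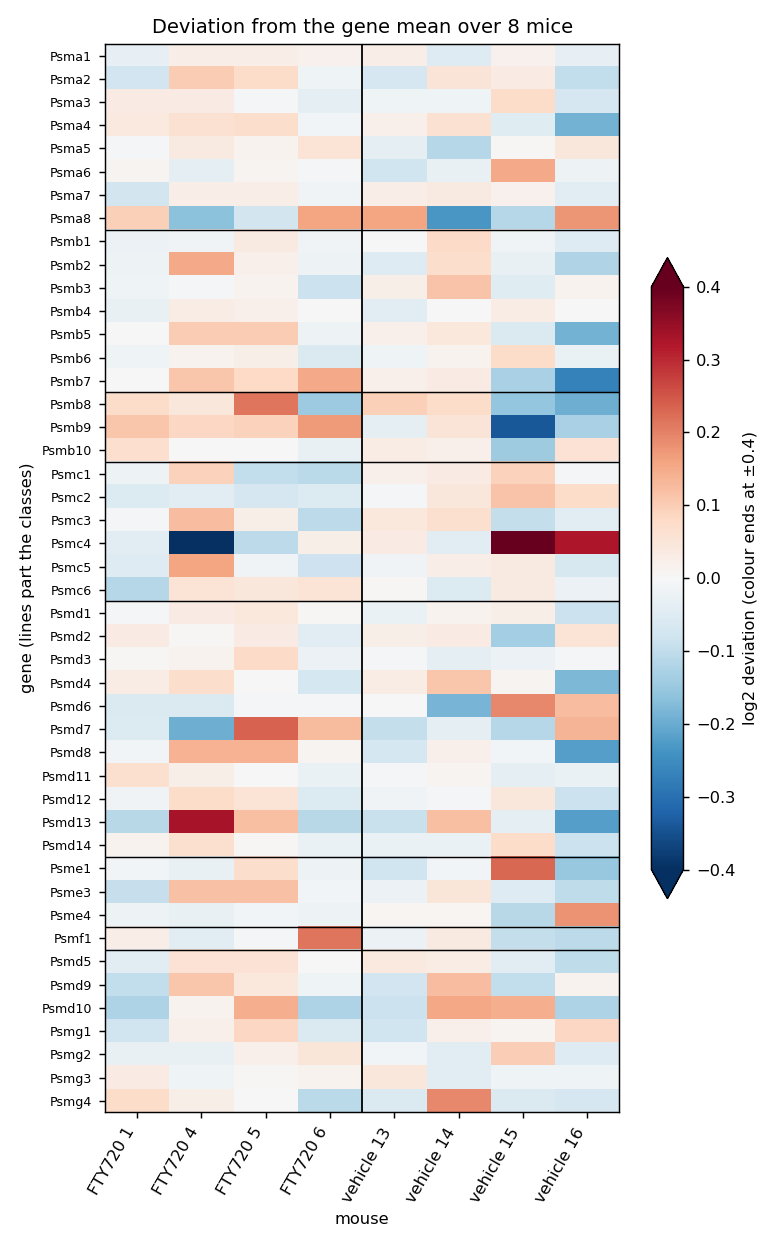
Log2 deviation of each of the 46 genes (rows, parted by class) from its mean over the 8 mice (columns, FTY720 left of the line and vehicle right of it). Red is above and blue below the gene's mean; vehicle 16 is blue in many rows, and Psmc4 has the strongest colours, blue in FTY720 4 and red in vehicle 15 and 16.

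Promoter windows were in the RefSeq table for 38 of the 46 genes, 40 windows in all. Those of Psma8, Psmb1, Psmb2, Psmb7, Psmc3, Psmd3, Psmd7 and Psmg2 were not used here. ACTTCCGG was in 10 of the 40 windows (25%), those of Psma6, Psmc1, Psmc2, Psmd6, Psmd12, Psmd13, Psme3, Psme4 and Psmg3, beside 3.89% of all 32851 windows. The core of the interferon-stimulated response element was in 5 windows (12.5%), those of Psmb3, Psmd4, Psmd9, Psme1 and Psmg4, beside 3.44%. The antioxidant core TGACNNNGC was in 6 (15.0%, beside 12.4%) and CCAAT in 13 (32.5%, beside 37.4%). The NF-kappaB site was in 0 of 40, beside 0.155%, a share so low that nothing can be read from its absence in 40 windows. The motifs were searched on both strands, and a match describes the letters of the window only.

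Genes that work with the proteasome were also close to 0. Of 20 measured cofactors and transcription factors, 2 were higher and 0 lower at an unadjusted p under 0.05, with a median difference of 0.012. These are 10% of the list, beside 6.64% of all genes, and 3 genes (15%) had no overlap between the groups, beside 4.49%. Usp14, a deubiquitinase on the regulatory particle, read 10.10, 10.14, 10.19 and 10.16 in FTY720 mice and 10.09, 10.02, 10.03 and 10.01 in vehicle mice, without overlap (difference 0.11, SE 0.04, limma adjusted p = 0.735). Ufd1 and Faf1, which work with the unfolding ATPase Vcp, differed by 0.13 (SE 0.05) and 0.09 (SE 0.04), also without overlap. Of 16 measured ubiquitin-conjugating enzymes, 2 were higher and 0 lower (12.5%, beside 6.64%), and 3 had no overlap (18.8%, beside 4.49%), with a median of 0.031. Ube2g2, an enzyme of degradation from the endoplasmic reticulum, differed by 0.12 (SE 0.04), Ube2n by 0.12 (SE 0.05) and Ube2r2 by -0.09 (SE 0.04), each without overlap between the groups. Values for the ubiquitin genes themselves were not used here.

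A list of interferon-inducible genes was mostly on the lower side, unlike Psmb9 and Tap1. It holds genes of antigen presentation and others, namely Irf and Ifit genes and Gbp2. Of 15 measured, 4 were above and 11 below 0 with a median of -0.04, and Tap1 was the 1 higher at an unadjusted p under 0.05. In all 20% of the list was at that p, beside 6.64% of all genes, of which 3.86% were higher and 2.78% lower. The 2 lower were B2m, the light chain of class I molecules, at -0.19 (SE 0.07, limma adjusted p = 0.719), and Erap1, the peptidase that trims peptides for them, at -0.17 (SE 0.07, limma adjusted p = 0.726). B2m read 9.46, 9.36, 9.33 and 9.22 in FTY720 mice and 9.38, 9.54, 9.57 and 9.65 in vehicle mice, where vehicle 13 lay within the FTY720 values.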

How the data were processed

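Each array was prepared from 100 ng of RNA, per the labels' protocols, and holds 1 hippocampus. The deposited values are on a log2 scale, as judged from their range of 2.31 to 14.5. The submitters' processing notes list Affymetrix Expression Console, MAS5 and RMA, with neither version nor role. Scan dates and the genome build are not given in the sources used here, and no batch was tested.

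Of 22690 probe sets, 20393 had 1 gene symbol, 691 several and 1606 none. The brightest probe set per gene gave 12394 genes, and no filter on level was set. All genes were fitted with lmFit and eBayes (limma 3.58.1, R 4.3.3) for 4 FTY720 against 4 vehicle arrays, with Benjamini-Hochberg adjustment over all of them, and all probe sets in a second fit. SE and intervals are limma's, SD is between mice, and the number of arrays limits the precision. Within-mouse differences between probe sets of different genes were read only for their shift between groups. Results of 1 promoter motif are not reported here. The fit was tested on simulated data.

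Values per mouse were given for the 2 genes of smallest unadjusted p in each class and for Psmb5 to Psmb10, Psme1 and Psme2. The 3 genes of smallest p were named from each pathway list. Other genes were described or singled out after their values were seen. The members and lists were chosen with earlier results of these data known. Alternatives covered normalization, centring, choice of probe sets, dim genes, variance models, left-out mice and the Gapdh covariate.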

Additional observations from a re-analysis of the deposited data

Results flagged for a closer look

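In 5 of 92 groups of 4 mice (46 genes in FTY720 and in vehicle), 1 mouse stood apart from the other 3 by more than Dixon's 95% limit for the gap over the range, and chance gives about 1 in 20, or 4.6. Psma1 was 9.97 in FTY720 1, against 10.02 to 10.03 in the other FTY720 mice. Psmb1 was 10.52 in FTY720 5, against 10.46 to 10.47. Psmc6 was 9.71 in FTY720 1, against 9.87 to 9.88. Psmd2 was 10.49 in vehicle 15, against 10.65 to 10.68 in the other vehicle mice. The assembly chaperone Psmg4 was 8.20 in vehicle 14, against 7.94 to 7.95. The count of flags is near that of chance, and none of the genes with an unadjusted p under 0.05 was among them.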

How the results depend on the processing

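No paired analysis was possible because the groups share no replicate numbers. Under 18 alternatives, 0 of the 46 genes passed the adjusted limma test, and 255 of 277 summary values (medians, counts and shifts of pairs) stayed within the set limits, the spread between mice (between gene pairs for correlations) or, for counts, 1.5 times. Sign is separate from this, and 28 of the 277 changed sign, most of them medians or shifts close to 0. Differences of the 18 genes given in full changed sign in 22 of 318 values. The causes were not tested.

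The count at an unadjusted p under 0.05 (4 as reported) was 0 with the Gapdh covariate (beside 4.07% of all genes). With array weights it was 2, Psmb9 and Psmd8 (beside 6.96%), of which Psmd8 is not among the 4 as reported. Without _s_, _x_ and _a_ probe sets it was 2 of 38, Psmb7 and Psmb9 (beside 6.39%). It was 0 without vehicle 15 and 16 together (beside 5.70%), and 1 to 5 with any 1 mouse left out. With 1 FTY720 mouse left out, the share of all genes was 5.16% to 5.67%. For 1 vehicle mouse left out that share is not given here. The count without overlap (2 as reported) was 1 of 38 genes without _s_, _x_ and _a_ probe sets. Above the median level it was 1 of 43 (2.33%, beside 5.68% of all genes above that level). It was 6 without vehicle 15 and 16, and 2 to 6 with 1 mouse left out. With fewer mice the groups fail to overlap more easily in any gene, and shares over all genes are not given for these fits. Such a rise is thus not a result about these genes. With 1 mouse left out, the median of the alpha ring ran from 0.0048 to 0.036 and that of the activators from -0.019 to 0.055.

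With the Gapdh covariate, medians were -0.020 for the alpha ring, -0.091 for the ATPases and -0.0061 for the other regulatory subunits, and Psmb10 minus Psmb7 was 0.037. Signs turned for Psmd13 (-0.023), Psme4 (0.057), Psmd5 (-0.017) and Psme1 (-0.073). Without vehicle 15 and 16, the immunoproteasome median was -0.016, with Psma4 at -0.0018, Psmb8 at -0.036, Psmd5 at -0.016 and Psmb10 at -0.016. Other reversals were Psmb10 with array weights (-0.0021), Psme1 when centred on brighter genes (-0.0013) or quantile normalized (-4.7e-05), Psme3 (-0.024) and Psme4 (0.023) as means of all probe sets, and Psma5 (-0.036) and Psmc4 (0.0085) without _s_, _x_ and _a_ probe sets. With 1 mouse left out, Psmb10 ran from -0.027 to 0.039, Psme1 from -0.043 to 0.083, Psmb6 from -0.032 to 0.0023 and Psme4 from -0.087 to 0.0098.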

Other observations

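The only probe set of Psme2, the partner of Psme1 in the interferon-induced activator, is also annotated to Psme2b, so the 2 cannot be told apart. It read 8.51, 8.52, 8.49 and 8.46 in FTY720 mice and 8.41, 8.47, 8.63 and 8.35 in vehicle mice. Vehicle 15 was highest and vehicle 16 lowest, as for Psme1, and the means were 8.49 ± 0.03 in FTY720 and 8.47 ± 0.12 in vehicle mice (SD, n = 4 each).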
